A study of Sus scrofa with 4 samples.

Results

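The baseline transcriptome of the mature pig oocyte was described from the 2 untreated (Control) samples of a series of 4 samples, chosen by their label alone, and over the 16050 genes that hold values among the 30684 rows of the deposited table. In this study immature porcine oocytes, taken with their surrounding cumulus cells, were matured in vitro for 44 h with or without added copper. The untreated oocytes carried no added Cu, were female germ cells of Sus scrofa for which no genetic change is named, and are labelled as Metaphase II, the stage at which a mature egg waits for the sperm. Each library came from 3 oocytes by the methods of the study, after Smart-seq2 amplification, which copies polyadenylated transcripts from very few cells. Those methods describe 3 sets of samples per group, while the series holds 2 Control samples. The label Control was taken as given. The ovaries came from a slaughterhouse, no age of the animals is given in the sources used here, and nothing states that the libraries came from separate animals or culture days, so the spread between them may be technical.

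A fully grown oocyte stores mRNA made during its growth and then falls silent in transcription. From the start of meiotic maturation until the embryo switches on its own genome, its protein supply depends on which stored messages are translated and which are deadenylated and removed. The oocyte also builds the zona pellucida, the glycoprotein coat that sperm bind, and secretes growth factors that act on the cumulus cells around it.

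The values are FPKM, which divide the fragments of a gene by transcript length and by the size of the library, so that levels of different genes can be set side by side. No read numbers accompany them, so the depth behind each value is unknown, and no interval for counting error is given. The FPKM of the genes summed to 653322 in Control 1 and 616082 in Control 2. A gene was called expressed at 1 FPKM or more. By that limit 7923 genes were expressed in Control 1, 8162 in Control 2 and 7579 in both, while 7544 lay under 1 FPKM in both libraries and 1556 of these were listed at 0 in both. All 16050 genes with values are of type mRNA, so the 6702 lncRNA rows and the 3252 miRNA rows of the table, and a further 4676 mRNA rows that are blank, give no information on those transcripts.

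The oocyte markers set for checking the label were present. Of 12 such genes, all with values, 11 were at 1 FPKM or more in both libraries and none was under 1 FPKM in both. The exception was FIGLA, the transcription factor that starts zona gene expression in early follicles, at 1.87 FPKM in Control 1 and 0.96 FPKM in Control 2.

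A small number of genes held a large part of the sum of FPKM. The 10 most abundant genes took 32.3% of the sum of FPKM in Control 1 and 29.0% in Control 2, and the 100 most abundant took 55.8% and 52.2%. It needed 61 genes in Control 1 and 84 genes in Control 2 to reach 50% of the sum. At the other end, the genes under 1 FPKM contributed 0.239% of the sum in Control 1 and 0.256% in Control 2. One gene had a large part in these shares. Without LOC100621706 the 10 most abundant genes took 20.0% and 19.2%, and 121 and 140 genes were needed for 50%.

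**Figure D1:**
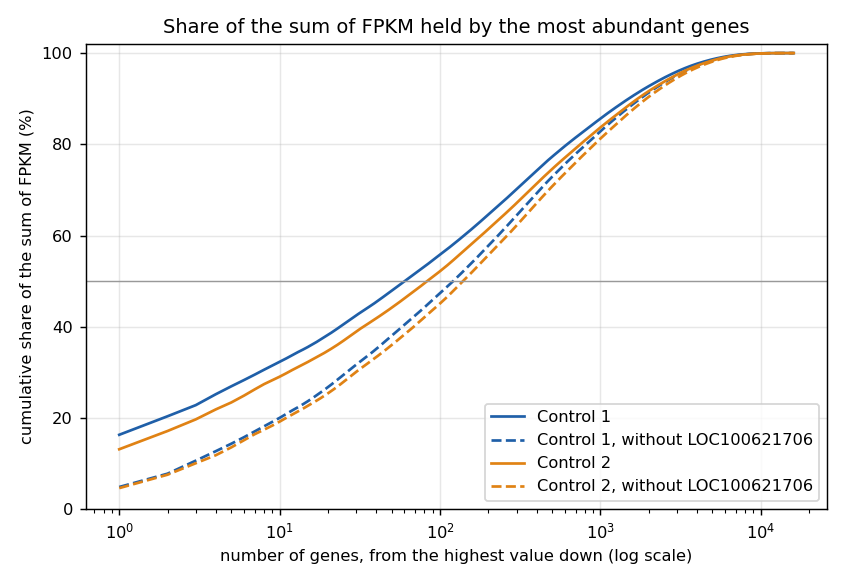
Cumulative share of the sum of FPKM in percent (vertical axis) against the number of genes counted from the highest value down (horizontal axis, log scale), for Control 1 and Control 2, with solid lines for all genes and dashed lines without LOC100621706. The solid lines cross 50% at 61 and 84 genes and the dashed lines at 121 and 140 genes.

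LOC100621706 was by far the most abundant transcript, at 106488 FPKM in Control 1 and 80857 FPKM in Control 2, which is 16.3% and 13.1% of the sum. RefSeq gives symbols that begin with LOC to genes that have no assigned name, and the table names no function for it. In the pig assembly Sscrofa11.1 the gene lies on chromosome 5, from 19669343 to 19676417. Its direct protein-coding neighbours were expressed at far lower levels, though above the median gene, GTSF1, a gene of the germline small RNA pathway, at 56.1 and 59.6 FPKM and NCKAP1L, an actin regulator of blood cells, at 28.2 and 26.0 FPKM in Control 1 and Control 2. These neighbours were named for their position and not for their level.

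The second most abundant gene, BTG4, is the adaptor that brings the CCR4-NOT deadenylase to maternal mRNA. It stood at 26512 FPKM in Control 1 and 24654 FPKM in Control 2, or 4.06% and 4.0% of the sum. UBB, which encodes ubiquitin as repeated units, followed with 15631 and 15724 FPKM. The libraries differed little for both genes, by less than the median ratio of 1.16 between libraries at this level.

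Cell cycle regulators came next. PTTG1, or securin, which holds back separase until anaphase, was at 15963 FPKM in Control 1 and 13481 FPKM in Control 2. For CKS1B, a small subunit that binds cyclin-dependent kinases, the values were 11368 and 9403 FPKM. PCNA, the sliding clamp of DNA replication, was at 4927 and 3885 FPKM. All 3 were higher in Control 1, as were most of the genes at 1000 FPKM or more, whose median log2 ratio of Control 2 to Control 1 was -0.14.

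Germline and chromatin genes formed another part of the 30 most abundant. DPPA5, an RNA-binding protein of germ cells and pluripotent cells, reached 3732 FPKM in Control 1 and 4457 FPKM in Control 2. DPPA3, which protects maternal methylation in the zygote, was at 3562 and 3322 FPKM. H1FOO, the oocyte's own linker histone, was at 3250 and 3622 FPKM, and DNMT1, the maintenance DNA methyltransferase, at 2986 and 3304 FPKM. Of these genes DPPA5 differed most between the libraries, with a ratio of 1.19.

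Several of the remaining genes in the top 30 serve transcription control, protein handling and mitochondria. ID3, which blocks DNA binding of helix-loop-helix factors, was at 8974 and 9239 FPKM, and ENY2, a small subunit of the SAGA and TREX-2 complexes, at 3619 and 3068 FPKM. AKIRIN2, a nuclear protein that acts in the nuclear import of proteasomes, was at 3655 and 2720 FPKM. The rhomboid protease PARL of the mitochondrial inner membrane was at 4700 and 4794 FPKM, and TOMM7, a small subunit of the outer membrane import pore, at 3541 and 2983 FPKM. PARL differed little between the libraries, while AKIRIN2 was lower in Control 2.

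ACCSL, which is named for its likeness to a plant-type ACC synthase, was at 6964 and 8444 FPKM. SRPX, a protein with sushi repeats, was at 4301 and 2741 FPKM, one of the wider gaps in the top 30. Splicing, signalling and folding were represented by a gene or more each. SNRPE, a core protein of the spliceosomal small nuclear ribonucleoproteins, was at 3117 and 2814 FPKM. INPP1, a phosphatase of inositol phosphates, was at 2829 and 2642 FPKM, and DYNLT1, a light chain of dynein, at 2780 and 2464 FPKM. The mitochondrial co-chaperonin HSPE1 was at 2370 and 2585 FPKM, NGDN, a binding partner of translation factors and CPEB, at 2406 and 2409 FPKM, SUMO2, a ubiquitin-like modifier, at 2583 and 2174 FPKM, and BTF3, a subunit of the nascent polypeptide complex, at 2589 and 2085 FPKM. FTL, the light chain of the iron store ferritin, closed the 30 with 3267 FPKM in Control 1 and 1298 FPKM in Control 2, the widest gap among them.

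**Figure D2:**
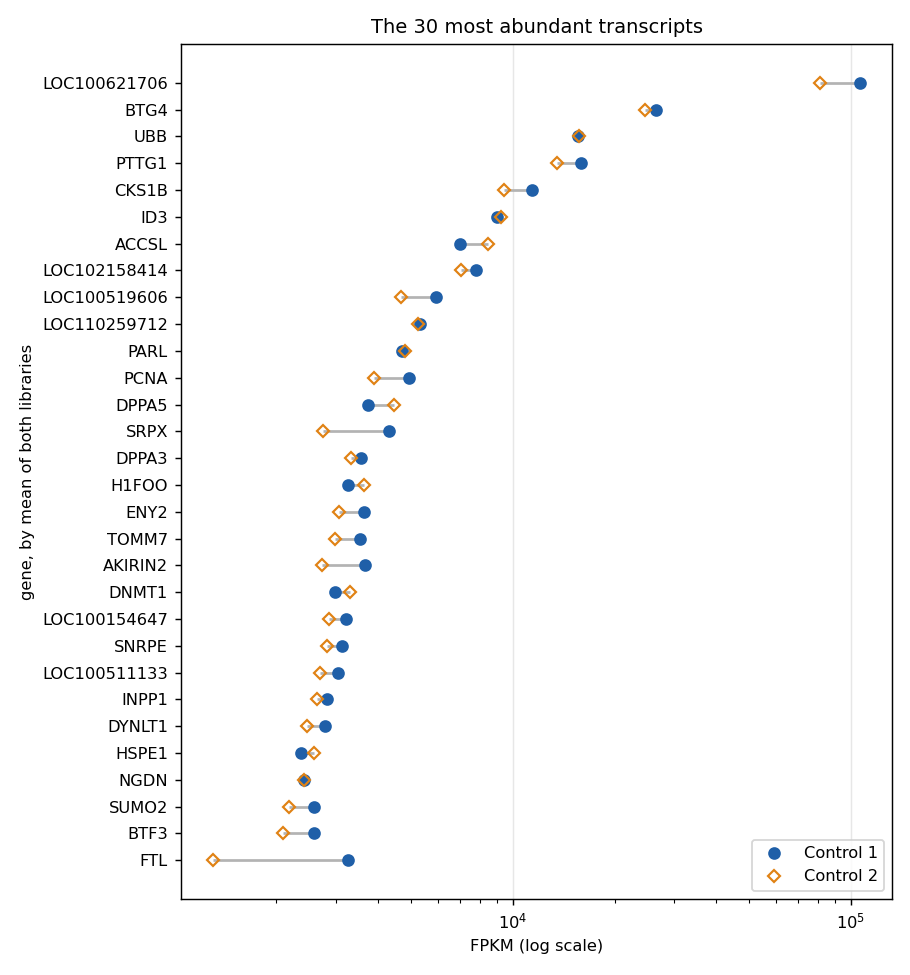
FPKM (horizontal axis, log scale) of the 30 genes with the highest mean of both libraries, in Control 1 (filled circles) and Control 2 (open diamonds), with a grey line joining the values of a gene. LOC100621706 stands apart at 106488 and 80857 FPKM, and FTL shows the widest gap, with 3267 and 1298 FPKM.

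Unnamed genes were frequent at the very top. Of the 10 most abundant genes 4 had a LOC symbol, of the 30 most abundant 6, of the 100 most abundant 11, and of all genes with values 12.5%. Together the LOC genes held 23.4% of the sum of FPKM in Control 1 and 20.4% in Control 2, most of it LOC100621706.

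The positions of several unnamed genes lay close together. On chromosome 2, LOC102158414 (11575072 to 11637942) was at 7797 FPKM in Control 1 and 7053 FPKM in Control 2. The gene before it, LOC110259712 (11519034 to 11538937), was at 5321 and 5229 FPKM. Next in the same direction came LOC110259711 with 2289 and 1833 FPKM, LOC110259255 with 642 and 385 FPKM, and LOC100512212 with 1813 and 2121 FPKM, so that 5 neighbouring unnamed genes were all highly expressed. The genes on either side of this run were under 1 FPKM, with TCN1, a cobalamin-binding protein whose annotated span overlaps LOC102158414, at 0.21 and 0.20 FPKM and MS4A2, a mast cell receptor subunit, at 0.10 and 0.38 FPKM. Apart from LOC102158414 and LOC110259712, these genes were named for their position after their values were seen, and so was GDF3, described next.

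On chromosome 5, LOC100511133 (62850277 to 62858105), with 3037 and 2693 FPKM, was the gene directly before DPPA3 (62861492 to 62868131). GDF3 on its other side was at 1.79 and 1.71 FPKM, and NANOG, the pluripotency factor farther on, is a blank row. LOC100519606 on chromosome 6 (59860176 to 59874532) was at 5947 and 4658 FPKM, and LOC100154647 on chromosome 1 (26025808 to 26044787) was at 3206 and 2855 FPKM. Among the 100 most abundant genes, 4 pairs were direct protein-coding neighbours, and the fourth pair was LOC100511846 with DPPA5.

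The gene lists for oocyte and housekeeping functions covered 832 genes with values, of which 615 were expressed in both libraries, against 7579 of all 16050 genes. They held 23.4% of the sum of FPKM in Control 1 and 23.7% in Control 2. The median of the mean FPKM over all genes with values was 1.01, and the median of every list but the ZNF genes lay above it.

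**Figure D3:**
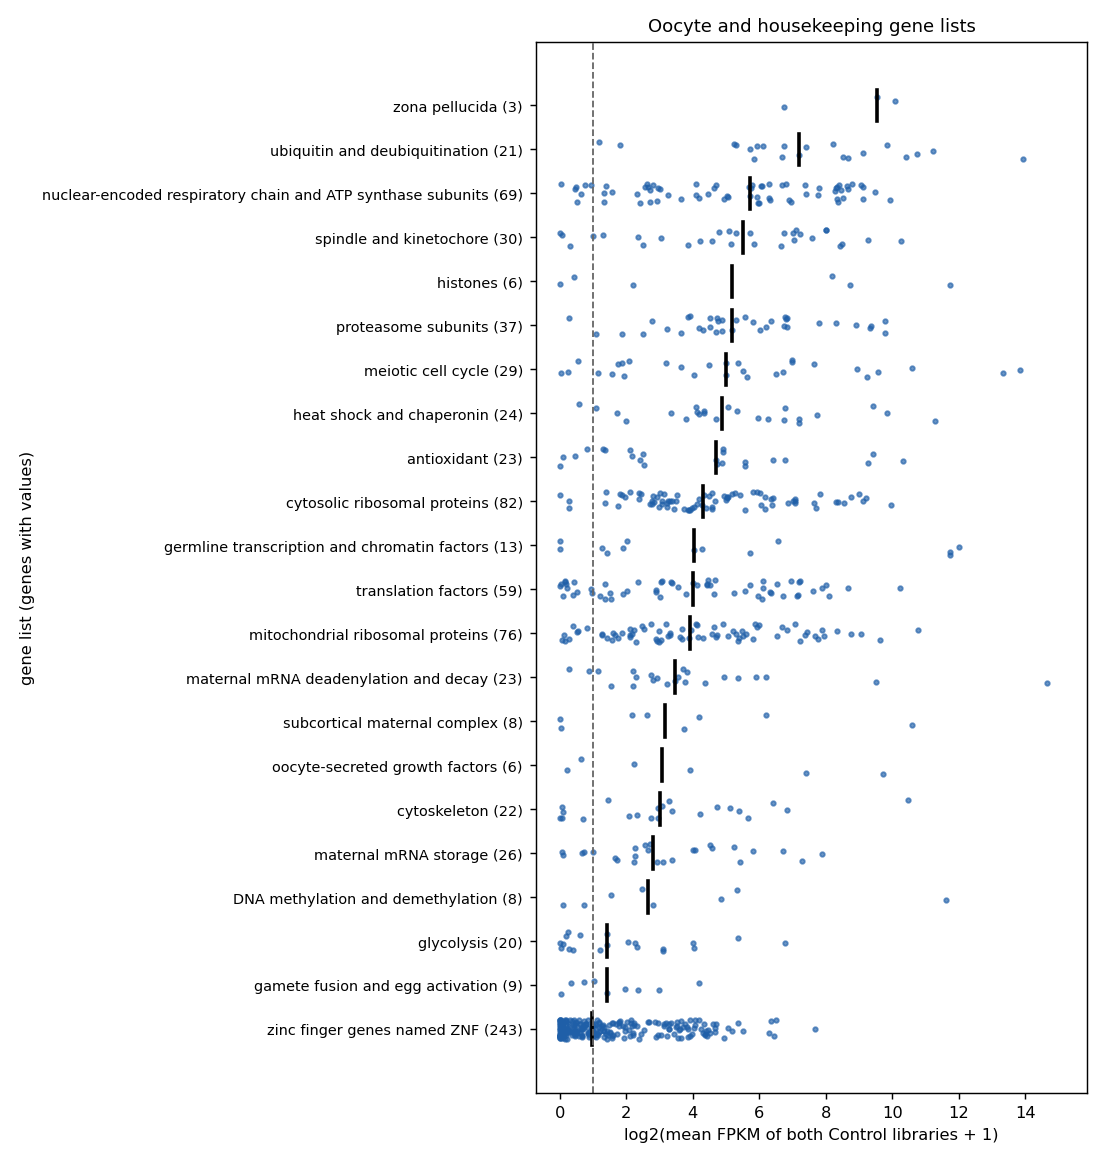
Level of each gene in the lists for oocyte and housekeeping functions as log2 of the mean FPKM of both Control libraries plus 1 (horizontal axis), with 1 row per list, the number of genes with values in brackets, a black bar at the list's median and a dashed line at the median of all 16050 genes. The zona pellucida list has the highest median, 743 FPKM over 3 genes, and only the ZNF genes, at 0.96 FPKM, have a median below the dashed line.

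Zona pellucida transcripts were abundant. ZP4 was at 755 FPKM in Control 1 and 1407 FPKM in Control 2, ZP2 at 495 and 991 FPKM, and ZP3 at 88.3 and 122 FPKM. All 3 genes, which encode structural glycoproteins of the egg coat, were higher in Control 2. ZP1 was not analysed here.

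The 4 secreted growth factors that were expressed in both libraries were also higher in Control 2. BMP15, which with GDF9 drives cumulus cell growth and differentiation, was at 396 FPKM in Control 1 and 1287 FPKM in Control 2, a ratio of 3.25. GDF9 was at 119 and 218 FPKM, a ratio of 1.82. KITLG, the ligand of the receptor KIT, was at 12.5 and 15.8 FPKM, and FGF16 at 3.16 and 4.18 FPKM. BMP6, at 0.48 and 0.59 FPKM, and FGF10, at 0.20 and 0.12 FPKM, lay under the limit in both libraries, and FGF8 is a blank row.

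The subcortical maternal complex, a store of proteins under the egg membrane that early cleavage needs, was led by a single gene. OOEP was at 2055 FPKM in Control 1 and 1006 FPKM in Control 2, more than 10 times the next member in each library. PADI6, which helps form the cytoplasmic lattices, was at 82.0 and 63.1 FPKM, TLE6 at 14.8 and 19.2 FPKM, and NLRP7 at 10.1 and 14.2 FPKM. KHDC3L was at 5.64 and 4.65 FPKM and NLRP5, also known as MATER, at 3.59 and 3.38 FPKM. ZBED3, at 0.03 and 0.01 FPKM, and NLRP2, listed at 0 in Control 1 and at 0.02 FPKM in Control 2, lay at the foot of the table.

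Below DPPA5, DPPA3 and H1FOO, the germline transcription and chromatin factors fell off steeply. NPM2, the chaperone that handles histones in the egg nucleus, was at 91.8 and 96.5 FPKM, and POU5F1, or OCT4, at 46.2 and 57.2 FPKM. Of the 13 genes of this list with values 10 were expressed in both libraries, and SOHLH1 and ZNF296 were listed at 0 in both. The zeros were named after their values were seen. After H1FOO, the histone genes were led by the variants H3F3A, at 410 and 441 FPKM, and H2AFZ, at 296 and 282 FPKM, which are made outside of S phase too. H2AFY was at 3.92 and 3.27 FPKM. Of the genes for replication-dependent histones, whose messages usually end without a poly(A) tail, HIST1H2BD was at 0.29 and 0.37 FPKM and HIST1H3E was listed at 0 in both.

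The DNA methylation genes were uneven too. Against DNMT1, the de novo methyltransferases DNMT3A and DNMT3B were at 33.8 and 44.8 FPKM and at 27.0 and 28.3 FPKM. UHRF1, which guides DNMT1 to replicated DNA, was at 5.33 and 6.64 FPKM. The oxidase TET3, which acts on the paternal genome after fertilization, was at 4.33 and 4.85 FPKM, TET2 at 2.11 and 1.73 FPKM and TET1 at 0.63 and 0.69 FPKM. TDG, the glycosylase that removes oxidized methylcytosine, was listed at 0 in Control 1 and at 0.13 FPKM in Control 2, and DNMT3L is a blank row.

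Genes that store maternal mRNA were expressed at moderate levels. Of 26 with values 21 were at 1 FPKM or more in both libraries, and the list's median was 6.02 FPKM. ZAR1L was at 164 FPKM in Control 1 and 303 FPKM in Control 2, IGF2BP3, which binds and stabilizes mRNA, at 143 and 165 FPKM, and EIF4ENIF1, the transporter that represses EIF4E, at 99.3 and 110 FPKM. The tudor domain gene RNF17 was at 55.0 and 54.2 FPKM and NANOS1, a translational repressor, at 48.9 and 34.8 FPKM.

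The list for deadenylation and decay, with 20 of 23 genes expressed in both libraries, held 4.22% of the sum in Control 1 and 4.17% in Control 2, nearly all of it BTG4. CNOT7, the catalytic deadenylase that BTG4 recruits, followed at 722 and 742 FPKM. CNOT11, a further CCR4-NOT subunit, was at 81.5 and 62.2 FPKM, the decapping factor DCP1A at 59.5 and 57.0 FPKM, and CNOT8, the close relative of CNOT7, at 40.0 and 40.5 FPKM. The median of the list was 10.1 FPKM.

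Of 29 genes of the meiotic cell cycle 26 were expressed in both libraries, with a median of 31.1 FPKM. Behind PTTG1 and CKS1B came CCNB1, the cyclin of maturation promoting factor, at 1666 FPKM in Control 1 and 1433 FPKM in Control 2. WEE2, the kinase that holds the oocyte in prophase and acts again at fertilization, was at 618 and 916 FPKM, and CKS2 was at 612 and 588 FPKM. MOS, the kinase upstream of MAPK that keeps the egg at Metaphase II, was at 351 and 627 FPKM, and CDK1, the partner of CCNB1, was at only 15.3 and 15.4 FPKM. MOS and CDK1 lie outside the 5 highest of the list and were named after their values were seen.

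The spindle and kinetochore list likewise had 26 of 30 genes expressed in both libraries, with a median of 44.7 FPKM. MAD2L1, a checkpoint protein that restrains the anaphase-promoting complex, was at 1392 and 1052 FPKM. AURKA, the kinase of the spindle poles, was at 649 and 572 FPKM, and AURKC, the Aurora kinase of meiosis, was at 300 and 409 FPKM. PRC1, which bundles midzone microtubules, was at 289 and 398 FPKM and BUB1B, another checkpoint protein, at 247 and 262 FPKM. At the low end stood REC8, the meiotic cohesin laid down before birth, at 0.02 FPKM in Control 1 and listed at 0 in Control 2, which was also named after its value was seen.

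Of 9 genes for sperm fusion and egg activation with values 5, or 55.6%, were expressed in both libraries, against 47.2% of all genes. The list's median was 1.655 FPKM, against 1.01 FPKM for all genes with values, and CACNA1H is a blank row. CD81, a tetraspanin of the egg surface, was the highest at 14.7 and 20.0 FPKM, followed by the channel TRPM7 at 7.87 and 5.98 FPKM and FETUB, which keeps the zona from hardening early, at 3.77 and 4.51 FPKM. The cortical granule protease ASTL was at 1.69 and 4.14 FPKM. IZUMO1R, or JUNO, the receptor for the sperm protein IZUMO1, was at 0.33 and 1.71 FPKM, and CD9, the tetraspanin needed for fusion in the mouse, was listed at 0 in Control 1 and at 0.04 FPKM in Control 2. The calcium channels ITPR1, ITPR2 and ITPR3 ranged from 0.09 to 2.21 FPKM over both libraries, with ITPR1 the highest.

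Ubiquitin, which marks proteins for turnover, was strongly represented. Of its 21 genes 20 were expressed in both libraries, with a median of 144 FPKM, and together they held 3.75% and 3.99% of the sum. UBB alone held 2.39% of the sum in Control 1 and 2.55% in Control 2. Behind UBB and SUMO2 were UBE2D3, a conjugating enzyme, at 1776 and 1678 FPKM, and UCHL1, a deubiquitinase of neurons and germ cells, at 1189 and 1522 FPKM. UBE2C, which works with the anaphase-promoting complex, was at 838 and 1012 FPKM.

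Proteasome subunits were expressed almost without exception, 36 of 37 in both libraries, with a median of 35.4 FPKM. PSMA2 was at 985 and 766 FPKM, PSMA5 at 994 and 753 FPKM, PSMB2 at 663 and 657 FPKM, PSMB1 at 575 and 708 FPKM and PSMA1 at 478 and 475 FPKM, all of them subunits of the core particle. The exception was PSMB9, a subunit of the immunoproteasome, at 0.43 FPKM in Control 1 and listed at 0 in Control 2, named after its value was seen.

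The share of the cytosolic ribosome lay above that of the proteasome and below that of ubiquitin. The 82 cytosolic ribosomal protein genes, of which 79 were expressed in both libraries, held 1.05% of the sum in Control 1 and 1.09% in Control 2, with a median of 18.8 FPKM. The highest was RPL26L1, a paralogue of RPL26, at 873 and 1101 FPKM, followed by RPS27L at 636 and 535 FPKM, RPL37 at 416 and 706 FPKM, RPS24 at 512 and 506 FPKM and RPS20 at 558 and 307 FPKM. RPL26 itself, chosen after its value was seen, was at 1.25 and 1.89 FPKM. Ribosomal protein genes have many near-identical copies, so the division of reads between copies is uncertain.

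Translation factors had 46 of 59 genes expressed in both libraries, and EIF1, which selects the start codon, led them at 1231 and 1198 FPKM. Next were EIF5B at 450 and 354 FPKM, EIF3E at 266 and 278 FPKM, EIF3M at 245 and 272 FPKM and EIF4G2 at 215 and 257 FPKM, all initiation factors. The list's median was 15.0 FPKM.

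Messages for mitochondrial proteins took shares close to or above that of the cytosolic ribosome. The 76 mitochondrial ribosomal protein genes, 68 of them expressed in both libraries, held 1.08% and 0.995% of the sum. MRPS17 was at 2038 FPKM in Control 1 and 1466 FPKM in Control 2, MRPL18 at 828 and 756 FPKM, MRPS14 at 579 and 492 FPKM, MRPL15 at 423 and 439 FPKM and MRPS16 at 392 and 260 FPKM. The 69 nuclear-encoded subunits of the respiratory chain and ATP synthase, 61 of them expressed in both libraries, held 1.59% and 1.40%, with a median of 52.1 FPKM. Their highest members were COX7C of complex IV at 1076 and 878 FPKM, NDUFA1 at 702 and 714 FPKM and NDUFB5 at 522 and 594 FPKM of complex I, SDHB of complex II at 556 and 558 FPKM, and COX6C at 549 and 521 FPKM.

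Glycolysis took a far smaller share. Of 20 rows 11, or 55%, were expressed in both libraries, against 47.2% of all genes, the list's median was 1.67 FPKM, and its share was 0.0261% in Control 1 and 0.0410% in Control 2. The lactate dehydrogenases led, LDHB at 98.1 and 119 FPKM (a second row of that symbol was listed at 0 and 0.05), LDHC, the form of germ cells, at 18.8 and 61.9 FPKM, and LDHA at 8.82 and 21.9 FPKM. PGK1, a glycolytic kinase, was at 13 and 17.4 FPKM, and GAPDH, commonly used as a reference gene, was at 9.18 and 6.08 FPKM. HK1, HK2, PFKL, PFKM, PGAM1 and ALDOA, all named after their values were seen, lay under 1 FPKM in both libraries.

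Heat shock proteins and chaperonins had 22 of 24 genes expressed in both libraries, with a median of 28.8 FPKM. After HSPE1, the DNAJ co-chaperone DNAJA1 was at 930 and 920 FPKM, CCT8 of the cytosolic chaperonin at 667 and 698 FPKM, and the cytosolic chaperones HSP90AB1 and HSP90AA1 at 208 and 214 FPKM and at 143 and 151 FPKM. HSPD1, the partner of HSPE1 in the mitochondrial chaperonin, chosen after its value was seen, was at 12.9 and 25.8 FPKM.

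Among the antioxidant genes, 19 of 23 were expressed in both libraries. PRDX2, a peroxiredoxin of the cytosol, was at 1534 FPKM in Control 1 and 1021 FPKM in Control 2, TXN, or thioredoxin, at 866 and 502 FPKM, and SOD1, the copper and zinc superoxide dismutase, at 637 and 599 FPKM. Glutathione reductase, GSR, was at 101 and 117 FPKM and catalase, CAT, at 60.5 and 107 FPKM. HMOX1, which degrades haem and is induced by stress, was listed at 0 in both, and was named after its value was seen.

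For the cytoskeleton, 16 of 22 genes were expressed in both libraries. TMSB4X, the thymosin that binds actin monomers, was at 1519 and 1338 FPKM, far above ACTG1 at 111 and 117 FPKM and ACTB at 101 and 68.7 FPKM, the cytoplasmic actins. ARPC2, of the Arp2/3 complex, was at 42.4 and 56.5 FPKM and PFN1, or profilin, at 25.8 and 55.3 FPKM. Vimentin, VIM, an intermediate filament of mesenchymal and follicle cells, was at 0.09 and 0.02 FPKM, and was chosen after its value was seen.

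The ZNF genes resembled the genes at large. Of 243 with values 110, or 45.3%, were expressed in both libraries, against 47.2% of all genes, and they held 0.245% and 0.240% of the sum. ZNF706 was the highest at 246 and 163 FPKM, and ZNF567, ZNF664, ZNF79 and ZNF207 lay between 76.0 and 96.3 FPKM.

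Most markers of other cell types lay under the limit. Over 12 lists, 106 rows held values and 81 of these, or 76.4%, lay under 1 FPKM in both libraries, against 47.0% of all genes. Only 18 were expressed in both. All lists together held 0.0506% of the sum in Control 1 and 0.0682% in Control 2. Most of this was the list of embryonic lineage genes, with 0.0349% and 0.0502%. Another 52 entries of these lists are blank rows, so their level cannot be given. In libraries made from several pooled cells, fewer cells of a type and less RNA per cell cannot be told apart.

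Cumulus and granulosa cells are the oocyte's neighbours in the follicle. Of their 17 markers with values, 13 were under 1 FPKM in both libraries and 3 were expressed in both. The expressed ones were FST, or follistatin, at 10.2 FPKM in Control 1 and 16.0 FPKM in Control 2, the transcription factor GATA4 at 8.33 and 10.1 FPKM, and the protease inhibitor SERPINE2 at 1.59 and 2.93 FPKM. Among the genes of cumulus matrix expansion, the proteoglycan VCAN was at 0.92 and 1.43 FPKM, PTX3 was listed at 0 in Control 1 and at 0.10 FPKM in Control 2, and TNFAIP6 was at 0.38 FPKM in Control 1 and listed at 0 in Control 2. HAS2 was not analysed here, and the receptors FSHR and LHCGR and the steroid enzyme CYP11A1 are blank rows. All 17 genes of the list summed to 22.1 FPKM in Control 1 and 31.6 FPKM in Control 2, most of it FST and GATA4. The 14 genes set to define these cells leave out FST, GATA4 and SERPINE2. The 8 of them with values summed to 1.5 and 2.03 FPKM, and the 12 oocyte markers to 7501 and 8378 FPKM. Most of the oocyte sum came from DPPA3, at 3562 and 3322 FPKM, and OOEP, at 2055 and 1006 FPKM. Other oocyte markers were weak, such as NLRP5 at 3.59 and 3.38 FPKM and FIGLA at 1.87 and 0.96 FPKM.

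The other ovarian and blood lists gave little. For theca and stroma, only the smooth muscle gene TAGLN was expressed in both libraries, at 2.76 and 1.55 FPKM, while COL1A1 was at 0.08 and 0.17 FPKM and INSL3, the theca hormone, was listed at 0 in both. None of the 5 blood cell markers with values was expressed in both libraries, and 9 others are blank rows. PTPRC, the pan-leukocyte marker CD45, was at 0.31 and 0.21 FPKM and CD3E of T cells was listed at 0 in both. Endothelial genes included PECAM1 at 1.96 and 5.61 FPKM and TEK, the angiopoietin receptor, at 3.30 and 3.63 FPKM, while KDR, CLDN5 and TIE1 of the same list were listed at 0 in both.

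In the lists for distant tissues, skeletal and heart muscle had 5 genes with values, neurons and glia 8 and male germ cells 5. All of these lay under 1 FPKM in both libraries, against 47.0% of all genes. Another 7, 4 and 7 genes of these lists, in that order, are blank rows, so their level cannot be given. The myosin MYH2 was listed at 0 in both libraries, SYN1 of synapses was at 0.08 FPKM in Control 1 and listed at 0 in Control 2, and the sperm genes PRM1, PRM2 and TNP1 are blank rows. Of the liver markers, the serum protein AHSG was expressed in both, at 12.8 and 8.89 FPKM, whereas albumin, ALB, was at 0.18 and 3.98 FPKM and the apolipoprotein genes APOA1 and APOA2 were at 0.19 and 1.4 FPKM in Control 1 and listed at 0 in Control 2. The hormone gene GCG was at 10.9 and 4.92 FPKM and LCT, the lactase of the gut, at 3.71 and 4.78 FPKM, while the hormone gene SST was at 0.74 and 2.41 FPKM and INS is a blank row. TP63, the epidermal p53 family member whose TAp63 form is active in mouse oocytes, was at 12.9 and 15.2 FPKM, the keratin KRT5 was at 0.02 and 0.51 FPKM, and KRT15 was listed at 0 in both. Genes of these lists at 0 in both libraries that do not define a cell type were named after their values were seen.

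Of 8 embryonic lineage genes with values 3, or 37.5%, were expressed in both libraries, against 47.2% of all genes. PAX6, the transcription factor of eye and brain, was at 180 FPKM in Control 1 and 224 FPKM in Control 2, the highest of all genes in these 12 lists. TFAP2C, a factor of trophectoderm and germ cells, was at 46.5 and 79.8 FPKM and EOMES at 1.79 and 3.85 FPKM. SOX2 was at 0.06 and 0.25 FPKM, and CDX2 and GATA6 were listed at 0 in both. Of the 24 HOX genes with values, 18 were under 1 FPKM in both libraries. Another 5, or 20.8%, were expressed in both, against 47.2% of all genes. HOXD8 was at 7.99 and 7.51 FPKM, HOXA7 at 6.58 and 2.75 FPKM and HOXC9 at 1.61 and 2.26 FPKM. The remaining expressed ones were HOXA9 at 1.88 and 1.25 FPKM and HOXD9 at 1.49 and 1.57 FPKM.

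**Figure D4:**
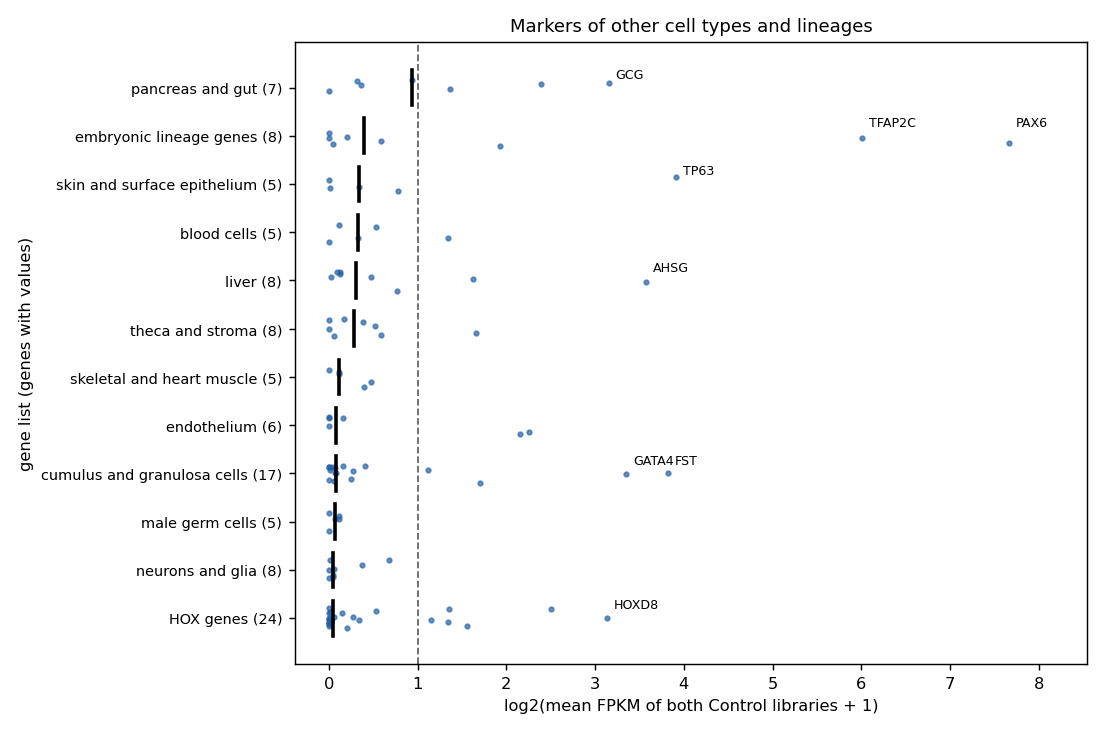
Level of each gene in the 12 lists for other cell types and lineages as log2 of the mean FPKM of both Control libraries plus 1 (horizontal axis), with the number of genes with values in brackets, a black bar at each list's median, a dashed line at the median of all 16050 genes and names for the highest genes. Every list's median lies left of the dashed line, and PAX6, at 180 and 224 FPKM in Control 1 and Control 2, is the farthest to the right.

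The libraries resembled each other closely. Across the 16050 genes, Pearson's r of log2(FPKM + 1) was 0.986 and Spearman's rho 0.952, as descriptions across genes, which are not independent replicates. Of the 7579 genes expressed in both libraries 93.2% had a ratio within 2 either way, with a median ratio of 1.23 whichever library was higher. The order of abundance was shared as well, with 9 of the 10 most abundant genes of each library in common, 28 of 30, 91 of 100 and 910 of 1000.

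The spread narrowed with level. The SD of the log2 ratio was 0.59 for 3848 genes with a mean of 1 to 10 FPKM, 0.46 for 2951 genes of 10 to 100 FPKM, 0.38 for 710 genes of 100 to 1000 FPKM and 0.34 for the 70 genes at 1000 FPKM or more. A ratio of 2.35 covered 95% of the genes in the lowest of these classes, 1.75 covered 95% of those at 100 to 1000 FPKM, and 1.64 of those at 1000 FPKM or more. Weakly expressed genes were therefore less precisely known, and 344 genes were expressed in Control 1 only and 583 in Control 2 only.

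Some oocyte genes lay outside that spread. ZP4, with a ratio of Control 2 to Control 1 of 1.86, ZP2, with 2.0, GDF9, with 1.82, and BMP15, with 3.25, were all past the ratio that covered 95% of the genes at their level. In the other direction, the value of OOEP in Control 2 was 0.489 times that in Control 1, and that of FTL 0.397 times. Respiratory chain and ATP synthase genes were lower in Control 2 for 43 of 62 genes with a mean of 1 FPKM or more, with a median log2 ratio of -0.28. Over all 8047 such genes 3439 were lower in Control 2, and the median was 0.07. Other lists leaned the same way, such as cytosolic ribosomal proteins with 49 of 79 genes. Proteasome subunits, with 15 of 36 genes lower in Control 2 and a median log2 ratio of 0.11, lay close to the genes at large. With 1 group of 2 libraries no test of these differences was made.

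Larger gaps were rare. Of 3732 genes with a mean of 10 FPKM or more, 127 were past a ratio of 2 either way on the log2(FPKM + 1) scale, 90 of them higher in Control 2, and 10 were past a ratio of 4. The 5 genes that were highest in Control 1 relative to Control 2 were NUDT4, which degrades diphosphoinositol phosphates, at 98.5 and 12.1 FPKM, COQ8A of coenzyme Q synthesis at 17.7 and 4.15 FPKM, the zinc transporter SLC30A6 at 33.7 and 10.4 FPKM, the cilia gene CFAP300 at 22.5 and 6.95 FPKM, and the gasdermin GSDME at 19.4 and 6.13 FPKM. None of them belongs to the lists above.

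Higher in Control 2 were LOC100154892, listed at 0 in Control 1 and at 43.9 FPKM in Control 2, LOC102166107 at 29.5 and 168 FPKM, LOC100521702 at 2.90 and 19.7 FPKM, LOC100737657 at 5.28 and 29.4 FPKM, and UBE2T, the conjugating enzyme of the Fanconi anaemia pathway, at 29.9 and 142 FPKM. LOC100154892 was the only gene at 10 FPKM or more in one library and listed at 0 in the other.

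**Figure D5:**
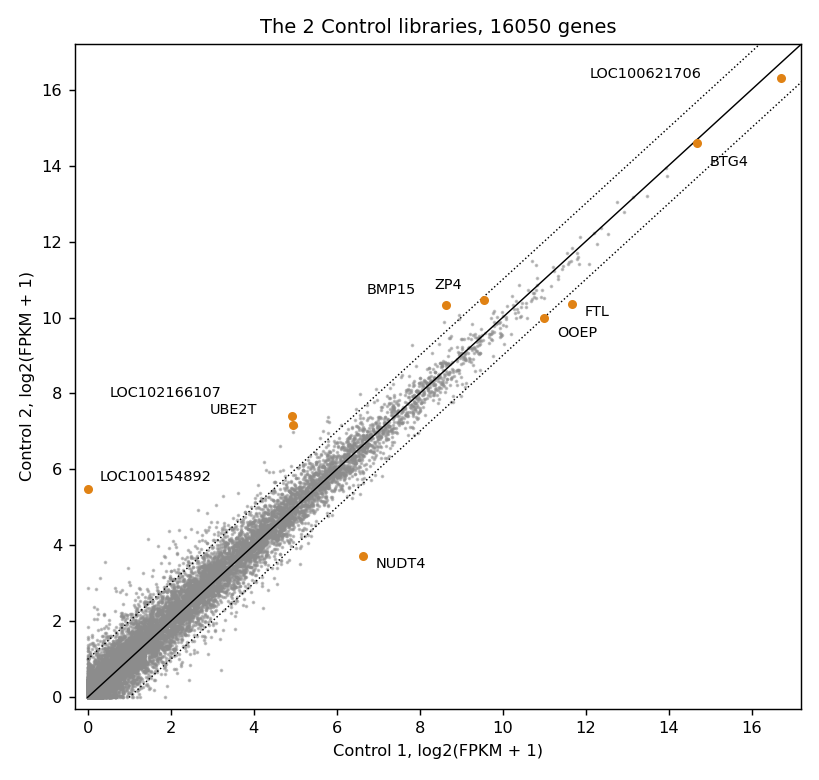
Each of the 16050 genes as a point, with log2(FPKM + 1) of Control 1 on the horizontal axis and of Control 2 on the vertical axis, a solid line at equality and dotted lines at a difference of 1 on the log2 scale. The points crowd along the line (r of 0.986), and the coloured points mark the 2 most abundant genes and named genes that lie apart, with NUDT4 below the line at 98.5 and 12.1 FPKM and LOC100154892 on the vertical axis at 43.9 FPKM.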

How the data were processed

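The authors amplified RNA by Smart-seq2 and deposited FPKM, rounded to 2 decimals. The study's methods name HISAT2, Bowtie2 and RSEM, while the submitters' processing notes name TopHat2 2.0.13, Cufflinks 2.2.1, Cuffnorm and Cuffdiff and the build Sscrofa11.1. Which of them made the deposited FPKM is not settled by these sources. The depth is unknown, and an exact 0 is given only as listed at 0. Every per-sample column was mapped to a sample by its name, and only the columns of the Control samples were read.

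From the FPKM the mean of both libraries, the share of each library's sum and log2(FPKM + 1) were computed with Python 3.11.15, pandas 2.3.3 and numpy 2.4.6. The authors' FPKM were put on this log2 scale with no further scaling. No test was made, since there was 1 group of 2 libraries. All 16050 gene identifiers matched the RefSeq table of Sscrofa11.1, which gave the positions. Ratio and share functions were tested on simulated data. A handful of symbols (9) stand on more than 1 row.

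The members and gene lists were chosen with earlier results of these data known. The genes named are the 30 highest means, the 5 highest of each functional list and all members of lists with up to 10 genes, for other cell types the genes at 1 FPKM or more in both libraries and defining markers, and the 5 largest ratios in each direction at a mean of 10 FPKM or more. Alternatives were other FPKM limits, a rescaled sum, upper-quartile scaling, a pseudocount of 0.1, leaving out the most abundant gene and leaving out each library. The authors' mean columns and the copper samples were not used here.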

Additional observations from a re-analysis of the deposited data

How the results depend on the processing

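The number of genes expressed in both libraries moved with the limit, from 7579 at 1 FPKM to 10885 at 0.1 FPKM and 3494 at 10 FPKM, and was 8306 after rescaling each library to the same sum. Single libraries gave 7923 and 8162 genes. Leaving out LOC100621706 changed the mean share of the 10 most abundant genes from 30.7% to 19.6%, the mean number of genes for 50% of the sum from 72.5 to 130.5, and the share of the functional lists from 23.5% to 27.6%, since the sum is smaller without it. With either library alone these were 29.0% to 32.3%, 61 to 84 genes and 23.4% to 23.7%. Markers of other cell types under the limit in both libraries fell from 81 to 46 at a limit of 0.1 FPKM, and were 83 to 86 with 1 library. Pearson's r was 0.974 with a pseudocount of 0.1 and 0.978 over the genes at 1 FPKM or more in both, against 0.986, and upper-quartile scaling left it at 0.986. With 2 libraries, 1 SD always covers the value of either, so leaving out a library says nothing on stability. No paired analysis was possible because the result comes from no test. FPKM without read numbers give no limit for weakly expressed genes.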

Other observations

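Further gene groups were chosen after their values were seen, and are given as values only. The small nuclear ribonucleoproteins and LSM proteins, which build the spliceosome and the decapping complex, had 19 of 20 genes at 1 FPKM or more in both libraries and a median of 246 FPKM. SNRPC was at 1734 FPKM in Control 1 and 1600 FPKM in Control 2, SNRPF at 1075 and 1040 FPKM and LSM7 at 919 and 911 FPKM, while SNRNP70, of the U1 particle, was at 0.48 and 0.79 FPKM. Mediator and RNA polymerase II subunits were likewise uneven, with POLR2J at 1777 and 1465 FPKM and MED21 at 966 and 926 FPKM, but the catalytic POLR2A at 6.09 and 5.65 FPKM and POLR2B at 0.65 and 0.46 FPKM. In the mitochondrial import machinery, TOMM7 was at 3541 and 2983 FPKM and TOMM40, the pore itself, at 0.15 and 0.03 FPKM.

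KPNA7, the importin of oocytes and early embryos, was at 1338 FPKM in Control 1 and 1847 FPKM in Control 2, against 0.96 and 1.60 FPKM for its partner KPNB1. Of 12 NLRP genes 8 were expressed in both libraries, with NLRP9 at 541 and 693 FPKM, NLRP11 at 103 and 69.9 FPKM, NLRP4 at 68.1 and 80.8 FPKM and NLRP13 at 68.6 and 46.5 FPKM. The metallothionein MT-2B was at 1512 and 1238 FPKM and the ferritin heavy chain FTH1 at 478 and 299 FPKM. Both rows named GZMA, a protease of cytotoxic lymphocytes, were expressed, at 433 and 332 FPKM and at 70.6 and 81.1 FPKM, while the blood cell marker PTPRC was at 0.31 and 0.21 FPKM and CD3E was listed at 0 in both.

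The median span in the genome, introns included, was 10.1 kb for the 100 highest genes, 21.9 kb for the 1000 highest and 34.4 kb for all 7579 genes expressed in both libraries. It was 11.97 kb for the 1556 genes listed at 0 in both libraries and 25.9 kb for all genes with values, so a short span was shared by the highest genes and those at 0. Over these 7579 genes Spearman's rho of mean FPKM with span was -0.10, a description across genes. Transcript lengths were not used here, and the part of gene length in the levels was not tested.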
